A study of Mus musculus with 18 samples.

Results

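The genes of the nucleosome remodelling and deacetylase (NuRD) complex were examined in mouse embryonic stem cells (ESCs) that depend on a rescue copy of HDAC1. The 10 members were taken by symbol: Mta1, Mta2, Mta3, Chd3, Chd4, Mbd2, Mbd3, Gatad2a, Gatad2b and Rbbp7. They were 10 of 53672 genes listed in each count table, and all 10 were among the 18791 genes with enough counts to be tested. RNA had been sequenced from E14TG2a ESCs with Hdac1/2 lox/lox alleles, in which 4-hydroxytamoxifen (OHT) removes endogenous HDAC1/2. Each of 3 lines stably expressed a piggyBac transgene of Flag-tagged HDAC1, either wild type (HDAC1-WT) or carrying E63R or Y48E, point mutations on the surface that contacts partner proteins. The lox alleles and an HDAC1 transgene were thus present in all groups, the controls included. Each line was harvested untreated and after OHT, with 3 libraries in each of 6 groups and 18 libraries in all. The labels give 5 days for both arms, with 1 µM OHT in the treated and 0 µM in the untreated arm, whereas the study's methods describe a shorter exposure to OHT followed by further culture. The transgene stands in a single line per form, so a difference between lines cannot be told apart from a difference between transfected lines.

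NuRD joins an ATP-dependent chromatin remodeller with a histone deacetylase in a single assembly. The MTA proteins form the scaffold and hold HDAC1 or HDAC2 through their ELM2 and SANT domains, the MBD protein bridges this deacetylase core to a GATAD2 protein, and GATAD2 recruits the CHD remodeller. RBBP4 and RBBP7 are histone-binding chaperones carried by MTA. In ESCs the complex is known for keeping pluripotency genes in check so that cells can leave self-renewal, and paralogs of each subunit take the same place in alternative forms of the complex.

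Counts on genes ranged from 9019615 to 11454638 per library. One library, untreated E63R replicate 3, stood apart from its group before any comparison was made. Its chi-square per degree of freedom against the other 2 replicates was 55.1 and 61.1, against 3.36 to 7.07 in all other replicate pairs. Its median absolute log2 deviation from the mean of the other 2 replicates was 0.463, against 0.109 to 0.154 in the libraries of the other 5 groups. These deviations of untreated E63R replicate 3 went with exon length at a Spearman rho of -0.52 across 12495 genes, which are not independent. Leaving this library out added 9 calls on members in the comparisons that use it and 12 in those that do not, and lost 0. Standard errors were then smaller even where it was not compared, for example 0.07 against 0.12 for the OHT effect on Mta3 in the WT line. Estimates in the comparisons that use it moved as well, and the genes tested went from 18791 to 19503. Which of these changes added the calls was not tested. Values without this library are given beside each call on a member that changed and each direction that turned. Hdac1 and Hdac2, the deleted genes and themselves NuRD subunits, were examined as a check of the labels. Hdac2 had 169 to 208 counts scaled by library size (CPM) in untreated and 112 to 133 CPM in OHT-treated HDAC1-WT cells, but 149 to 154 and 139 to 152 CPM in the Y48E line. Hdac1 had 201 to 210 and 169 to 179 CPM in the WT line and 97.9 to 104 and 110 to 113 CPM in the Y48E line. In the E63R line, Hdac2 had 152 to 210 CPM untreated (152 to 169 without replicate 3) and 150 to 158 CPM after OHT, and Hdac1 94.9 to 110 and 112 to 131 CPM. Such whole-gene counts keep exons outside a deletion and may hold transgene reads, so they did not settle the labels. The p-values below measure the spread between libraries. The study describes these as biological replicates, and the labels do not say whether they came from separate cultures.

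Levels between genes were compared per length, as library-scaled reads per kilobase of exon (RPKM). In untreated HDAC1-WT cells Rbbp7 was highest at 77.8 ± 1.08 RPKM (SD, n = 3 here and for all group means). Mbd3 followed at 61.5 ± 3.00, Chd4 at 47.4 ± 0.779 and Mta1 at 46.7 ± 2.83 RPKM. Mta3 stood at 40.9 ± 3.24, Mta2 at 38.4 ± 3.11 and Gatad2a at 29.0 ± 1.39 RPKM. After a gap came Mbd2 at 7.64 ± 0.526, Gatad2b at 6.95 ± 0.472 and Chd3 at 3.78 ± 0.134 RPKM. The libraries of Chd4 and Mta1, of Mta1 and Mta3, of Mta3 and Mta2, and of Mbd2 and Gatad2b overlapped, so these neighbours were not separated, whereas the other neighbours were. The order depended on the length used. With the longest transcript in place of the union of exons, Mta3 ranked above Chd4 and Mta1, at 66.2 against 56.7 and 51.3 RPKM, and Mbd2 stood at 12.6 RPKM, while Rbbp7, Mbd3, Mta2, Gatad2a, Mbd2, Gatad2b and Chd3 kept their ranks. One paralog of each of the CHD, MBD and GATAD2 pairs therefore held most of the RNA, while the MTA genes were close to one another. After OHT in the Y48E line Gatad2a stood at 66.5 ± 1.87 RPKM, beside Chd4 at 64.2 ± 0.915 with overlapping libraries and above Mbd3 at 61.7 ± 1.34 RPKM, and Mta3 stood at 17.6 ± 0.213 RPKM, below Mta2 at 21.6 ± 0.553 RPKM. With the longest transcript both orders turned, with Gatad2a at 74.2 and Chd4 at 76.9 RPKM and Mta3 at 28.5 and Mta2 at 28.1 RPKM. Summed over the 10 genes, the level was 360 ± 7.31 RPKM in untreated and 351 ± 5.84 in OHT-treated WT cells, and 406 ± 11.0 and 378 ± 2.77 RPKM in the Y48E line. The sum in the E63R line was 465 ± 22.0 RPKM untreated, or 452 RPKM without replicate 3, and 402 ± 3.61 after OHT.

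**Figure D1:**
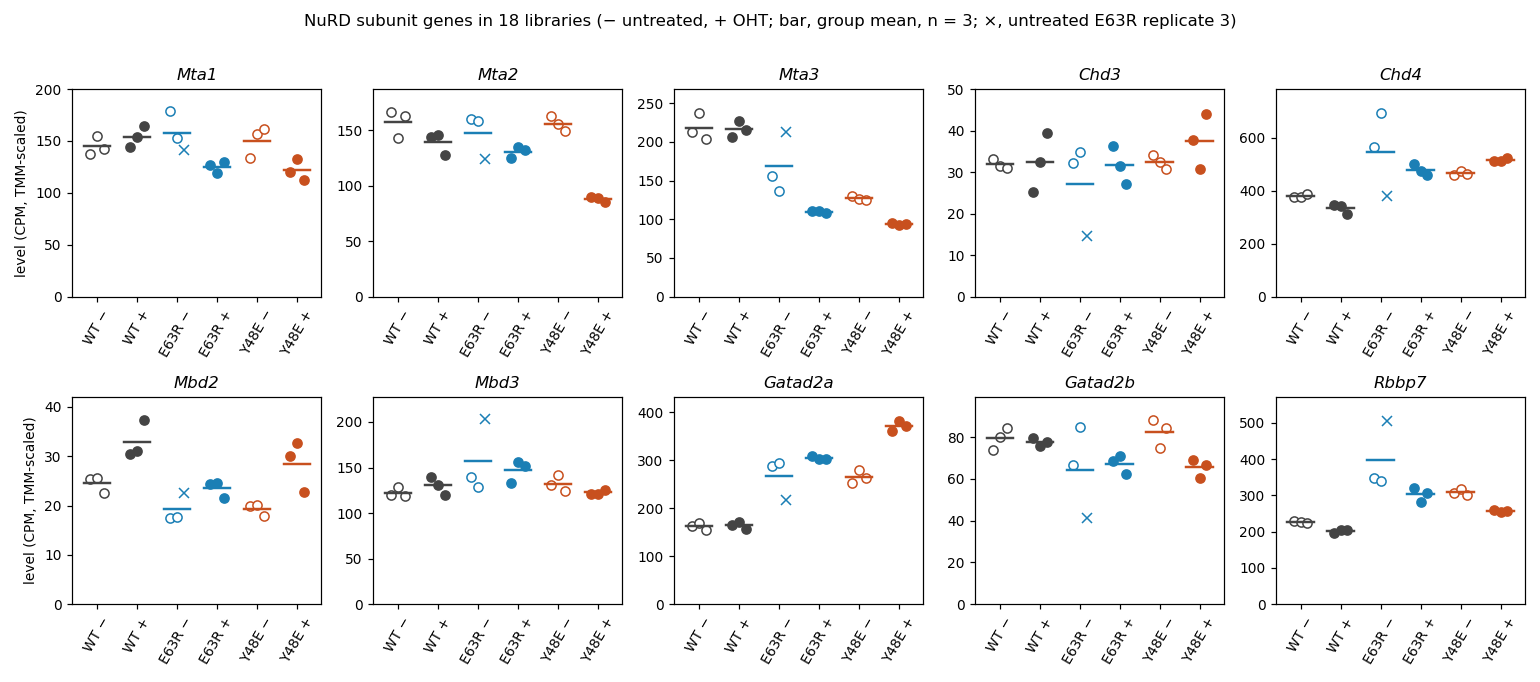
Level of each NuRD subunit gene in CPM (y axis, TMM-scaled, starting at 0) in the 18 libraries, grouped by rescue line and treatment (x axis); points are libraries, bars are group means and the cross is untreated E63R replicate 3. Mta2 lies at 85.7 to 90.1 CPM in OHT-treated Y48E libraries, below all other libraries, and Gatad2a at 361 to 382 CPM there.

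The first question was whether loss of endogenous HDAC1/2 changed these genes in each rescue line. A member was called when the adjusted p of edgeR's quasi-likelihood test, corrected over all tested genes, was under 0.01. In the HDAC1-WT line 0 of 10 members were called, against 0.0585% of all genes. At an unadjusted p under 0.05, edgeR gave 1 member (Mbd2), and DESeq2 called 0. With E63R rescue 1 member was called, against 14.3% of all genes, and it fell (Mta3), against 6.82% called as lower. Without untreated replicate 3, 4 members fell (Mta1, Mta2, Mta3 and Chd4), against 18.5% of all genes called. With only the 6 libraries of that line in the model, 0 were called. In the Y48E line 4 members were called, against 30.9% of all genes. Mta2 and Mta3 fell, against 14.7% of all genes called as lower, and Mbd2 and Gatad2a rose, against 16.2% called as higher. The call on Mta3 was lost with relative log expression factors and that on Mbd2 without a filter on low counts. With untreated E63R replicate 3 left out of the shared model, 7 were called, with Mta1, Gatad2b and Rbbp7 added among those that fell, against 41.1% of all genes. None of the called changes passed 2-fold in any of the 3 lines, whereas 0.0532%, 5.91% and 16.6% of all genes were called and past 2-fold in the WT, E63R and Y48E lines. The median size of the log2 change was 0.32 over the members and 0.56 over all tested genes in the Y48E line, 0.21 and 0.40 in the E63R line (0.23 and 0.38 without replicate 3), and 0.09 and 0.19 in the WT line. The 3 untreated and 3 treated libraries did not overlap for 3 members in the WT line, against 19.2% of all genes, for 4 in the E63R line against 36.9% (7 against 54.8% without untreated replicate 3), and for 8 in the Y48E line against 59.4%. These shares lie close to the background, so nothing is read from them about NuRD genes as a group, and the members are described one by one.

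**Figure D2:**
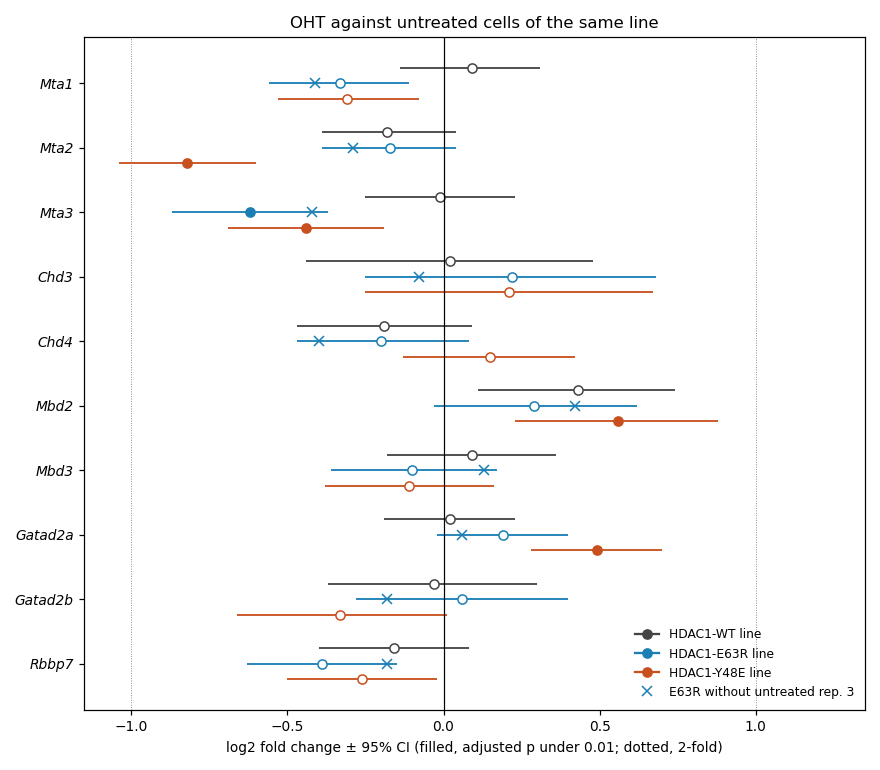
Log2 fold change of OHT over untreated cells (x axis) for each member (y axis) in the WT, E63R and Y48E lines, with 95% confidence intervals from the edgeR model; filled points have an adjusted p under 0.01, crosses give the E63R values without untreated replicate 3, and dotted lines mark 2-fold. Mta2 in the Y48E line lies at -0.82, apart from the WT and E63R values of -0.18 and -0.17.

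Among the scaffold genes, Mta2 (chromosome 19, 8941875 to 8952303 in mm10, plus strand) had the largest change of any member after OHT. It had 163, 156 and 149 CPM in the untreated Y48E libraries and 90.1, 88.9 and 85.7 CPM after OHT, so the treated libraries lay well below the untreated ones. The log2 fold change was -0.82 (standard error, SE, 0.11, edgeR's adjusted p = 1.99e-06), which is 1.77-fold lower. In the WT line Mta2 went from 166, 143 and 163 CPM to 144, 146 and 128 CPM, and these libraries overlapped. The log2 fold change there was -0.18 (SE 0.10, edgeR's adjusted p = 0.632). In the E63R line it went from 160.2, 158 and 124 CPM to 125, 135 and 133 CPM, where the lowest untreated value belonged to the library that stood apart. The log2 fold change was -0.17 with that library (edgeR's adjusted p = 0.244) and -0.29 without it (edgeR's adjusted p = 0.00593), so the call rested on leaving it out. Tested as a difference between lines, the OHT effect on Mta2 in the Y48E line was lower than that in the WT line by a log2 of -0.64 (SE 0.15, 95% interval -0.95 to -0.33, edgeR's adjusted p = 0.00316). Mta2 was the 1 member called in that test, against 12.6% of all genes. Against the E63R line the difference was -0.65 (edgeR's adjusted p = 0.0121, or 0.000455 without the library that stood apart, where the difference was -0.54). No member was called in the difference of Y48E from E63R or of E63R from WT, against 1.95% and 2.45% of all genes. At an unadjusted p under 0.05 edgeR gave 2 members in each of these, while DESeq2 called 1 (Mta2) in the former and 0 in the latter. Without untreated E63R replicate 3, members called were 5 in the difference of Y48E from WT (Mta1, Mta2, Mta3, Chd4 and Gatad2a), against 23.1% of all genes, 3 in that of Y48E from E63R (Mta2, Chd4 and Gatad2a), against 7.45%, and 2 in that of E63R from WT (Mta1 and Mta3), against 6.53%. The difference of E63R from WT for Mta2 was then -0.11, against 0.00 with the library, and was called in neither case.

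Mta3 (chromosome 17, 83706163 to 83821516, plus strand), an MTA form known for its regulation by estrogen in breast cells, fell after OHT in both mutant lines. It had 213, 237 and 203 CPM in untreated and 206, 227 and 215 CPM in treated WT cells, with a log2 fold change of -0.01 (95% interval -0.25 to 0.23). The Y48E libraries went from 130, 127 and 125 CPM to 94.6, 92.4 and 94.1 CPM without overlap. This was a log2 fold change of -0.44 (SE 0.12, edgeR's adjusted p = 0.00478), and it lost the call in each fit that left out 1 of these 6 libraries. The E63R libraries went from 157, 137 and 212 CPM to 110.3, 110.4 and 109 CPM, and all treated libraries lay below all untreated ones. The log2 fold change was -0.62 (SE 0.12, edgeR's adjusted p = 0.000611), or -0.42 without the highest untreated library, which was the one that stood apart. Without that library the OHT effect on Mta3 was below that of the WT line in the E63R line by -0.41 (edgeR's adjusted p = 0.00585) and in the Y48E line by -0.44 (edgeR's adjusted p = 0.000567). With it, these differences were -0.61 and -0.43, and neither was called (edgeR's adjusted p = 0.033 and 0.0692). The difference of Y48E from E63R, 0.18 with the library and -0.03 without it, was not called.

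Mta1 (chromosome 12, 113098278 to 113137206, plus strand), the founding member of the family, was not called in any of the 10 comparisons with all libraries. It had 137, 155 and 143 CPM in untreated and 144, 154 and 164 CPM in treated WT cells. In the Y48E line it had 133, 156 and 162 CPM before and 120.5, 133 and 112 CPM after OHT, and in the E63R line 178.5, 153 and 141 CPM before and 127, 119 and 129.7 CPM after. The treated libraries lay below the untreated ones in both mutant lines and overlapped in the WT line. The log2 fold changes were 0.09, -0.31 and -0.33 in the WT, Y48E and E63R lines (edgeR's adjusted p = 0.878, 0.0262 and 0.0279). Without the library that stood apart they were -0.31 and -0.41 in the mutant lines (edgeR's adjusted p = 0.00117 and 0.000347). The effects were then also called as lower than that of the WT line, by -0.40 in the Y48E line (edgeR's adjusted p = 0.00478) and -0.50 in the E63R line (edgeR's adjusted p = 0.00285), against -0.39 and -0.42 with the library. In treated cells the difference from WT was -0.34 for Y48E and -0.30 for E63R in both fits, called without the library (edgeR's adjusted p = 0.000338 and 0.00233) and not with it (edgeR's adjusted p = 0.0139 and 0.0408). All 6 of these calls on Mta1 thus depended on that library.

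Of the remodellers, Chd4 (chromosome 6, 125095981 to 125130591, plus strand), the main remodelling ATPase of the complex, was higher in OHT-treated cells of both mutant lines than in treated WT cells. It had 376, 376.5 and 387 CPM in untreated and 345, 341 and 312 CPM in treated WT cells. In the Y48E line it had 458, 474 and 463 CPM before and 510.3, 511 and 523.5 CPM after OHT. Treated libraries thus lay below untreated ones in the WT line and above them in the Y48E line. The log2 fold changes were -0.19 (95% interval -0.47 to 0.09) and 0.15 (95% interval -0.13 to 0.42), and neither was called. Their difference of 0.34 missed the threshold (edgeR's adjusted p = 0.213) but was called at 0.33 without untreated E63R replicate 3 (edgeR's adjusted p = 0.00189). The E63R libraries had 564, 693 and 381 CPM untreated and 499.5, 472.5 and 458 CPM after OHT. The untreated value of 381 CPM came from the library that stood apart, and without it Chd4 fell by 0.40 on the log2 scale (edgeR's adjusted p = 6.24e-06), against -0.20 with it (edgeR's adjusted p = 0.302). Without that library the Y48E effect on Chd4 was above the E63R effect by 0.54 (edgeR's adjusted p = 1.81e-05). Chd3 (chromosome 11, 69343273 to 69369406, minus strand), its less abundant paralog, was not called in any comparison. Its levels ran from 25.3 to 44.1 CPM in all libraries but untreated E63R replicate 3, which had 14.5 CPM. Log2 changes of Chd3 after OHT were 0.02, 0.22 and 0.21 in the WT, E63R and Y48E lines, with 95% intervals as wide as -0.44 to 0.48 in the WT line. The E63R value turned to -0.08 without that library (edgeR's adjusted p = 0.766). The differences of Chd3 between lines turned as well, from 0.20 to -0.10 for E63R less WT, from -0.01 to 0.29 for Y48E less E63R and from -0.23 to 0.08 between untreated E63R and WT cells, and none was called.

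The MBD genes encode the subunits that link the deacetylase core to the rest of the complex. Mbd3, which lacks strong binding to methylated CpG, and Mbd2, which binds it, exclude one another from a single NuRD particle. Mbd3 (chromosome 10, 80392539 to 80399550, minus strand) had group means between 122 and 157 CPM and was not called in any of the 10 comparisons. Its one high value, 203 CPM, was that of untreated E63R replicate 3, beside 139 and 128 CPM in the other 2 replicates. Its log2 change after OHT in the E63R line was -0.10 with that library and 0.13 without it, and the difference from the WT effect -0.19 and 0.04, none of them called. Mbd2 had a higher group mean after OHT in all 3 lines. It had 25.4, 25.6 and 22.6 CPM in untreated and 30.5, 31.1 and 37.3 CPM in treated WT cells. It had 19.9, 20.1 and 17.98 CPM in untreated and 30.0, 32.6 and 22.9 CPM in treated Y48E cells. Treated libraries lay above untreated ones in both of these lines. The rise was called in the Y48E line, with a log2 fold change of 0.56 (SE 0.16, edgeR's adjusted p = 0.00631), and this call was lost in 5 of the 6 fits that left out a library. The change was 0.43 in the WT line (edgeR's adjusted p = 0.307). The E63R libraries had 17.6, 17.6 and 22.5 CPM before and 24.3, 24.7 and 21.6 CPM after OHT, a log2 fold change of 0.29, or 0.42 without replicate 3 (edgeR's adjusted p = 0.184 and 0.0606). The effects on Mbd2 in the Y48E and WT lines differed by 0.13, with a 95% interval of -0.32 to 0.59, which does not separate the lines.

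The GATAD2 genes encode the p66 subunits that tether CHD4. The upstream regions of both paralogs are shown because the ratio of their RNA differed between the groups. They are the 250 bases before the RefSeq start, from GRCm38.p6 (the assembly of mm10), printed 5′ to 3′ on the gene's strand. Capitals mark CCAAT or its reverse complement ATTGG, the letters of the box bound by the factor NF-Y.
Gatad2a, chr8:69996385-69996634, minus strand: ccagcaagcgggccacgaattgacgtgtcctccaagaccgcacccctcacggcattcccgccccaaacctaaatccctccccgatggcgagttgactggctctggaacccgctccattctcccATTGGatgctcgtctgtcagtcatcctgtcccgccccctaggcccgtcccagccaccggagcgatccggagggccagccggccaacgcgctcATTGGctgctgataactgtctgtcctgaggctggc
Gatad2b, chr3:90292931-90293180, plus strand: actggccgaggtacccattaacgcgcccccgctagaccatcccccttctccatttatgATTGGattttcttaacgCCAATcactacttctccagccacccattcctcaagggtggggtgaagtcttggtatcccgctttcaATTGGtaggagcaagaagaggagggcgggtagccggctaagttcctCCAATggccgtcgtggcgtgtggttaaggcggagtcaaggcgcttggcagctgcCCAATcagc
Gatad2a held 2 matches and Gatad2b 5, and 34.5% of 27025 such regions held at least 1. The regions had 18 and 13 CG pairs, against a median of 6. Each also held GGGCGG or its reverse complement CCGCCC, as did 33% of all regions, and neither held CCGGAAGT, TATAAA or their reverse complements. Among the regions of the members searched, that of Mta2 alone held CCGGAAGT (1 match), a sequence found with its reverse complement ACTTCCGG in 2.92% of all regions. That of Mbd3 alone held TATAAA or its reverse complement TTTATA (1 match), found in 13% of all regions. These matches describe the letters in the window only.

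Gatad2a (chromosome 8, 69907076 to 69996384, minus strand) was higher in both mutant lines than in the WT line and rose further after OHT in the Y48E line. It had 162, 170.1 and 155 CPM in untreated and 165, 171 and 158 CPM in treated WT cells. The Y48E libraries had 254, 279 and 263 CPM before and 361, 382 and 372 CPM after OHT, with no overlap. The log2 fold change was 0.49 (SE 0.10, edgeR's adjusted p = 0.000481) in the Y48E line and 0.02 in the WT line (95% interval -0.19 to 0.23). The difference between these effects, 0.47, missed the threshold (edgeR's adjusted p = 0.0219), and it was called at 0.46 without untreated E63R replicate 3 (edgeR's adjusted p = 3.18e-05) and by DESeq2. In the E63R line Gatad2a went from 288, 294 and 218.5 CPM to 309, 302 and 302 CPM. The change was 0.19 with the low replicate 3 and 0.06 without it (edgeR's adjusted p = 0.176 and 0.525). The Y48E effect on Gatad2a was above the E63R effect by 0.30 with that library (edgeR's adjusted p = 0.263) and by 0.42 without it, where it was called (edgeR's adjusted p = 0.000767). Gatad2b (chromosome 3, 90293178 to 90363407, plus strand) had 88.0, 74.9 and 84.2 CPM in untreated and 69.3, 60.7 and 66.8 CPM in treated Y48E cells. The treated libraries lay below the untreated ones, at a log2 fold change of -0.33 (edgeR's adjusted p = 0.104, or 0.00291 without untreated E63R replicate 3). The WT libraries of Gatad2b lay between 73.8 and 84.5 CPM in both arms. In the E63R line its change was 0.06 with the library that stood apart and -0.18 without it, and the difference from the WT effect 0.09 and -0.14, none of them called. An antisense transcript, 4930537H20Rik, overlaps 247 bases of Gatad2b (2.16% of its exons), and as the strand setting of the counting is not given in the sources used here, reads from these bases cannot be assigned.

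Rbbp7 (chromosome X, 162760402 to 162779092, plus strand), the histone chaperone, was higher in both untreated mutant lines than in the untreated WT line. It had 229, 227 and 223 CPM in untreated and 197, 204 and 205 CPM in treated WT cells. The Y48E libraries had 307, 317 and 301 CPM before and 261, 254 and 256 CPM after OHT, and the E63R libraries 347, 340.4 and 504.5 CPM before and 322, 281 and 307 CPM after. Treated libraries lay below untreated ones in all 3 lines. The log2 fold changes were -0.16, -0.26 and -0.39 in the WT, Y48E and E63R lines (edgeR's adjusted p = 0.716, 0.0689 and 0.0156). Without untreated E63R replicate 3 the change was -0.27 in the Y48E line (edgeR's adjusted p = 0.000212) and -0.18 in the E63R line (edgeR's adjusted p = 0.0349). The difference between the Y48E and E63R effects on Rbbp7 turned from 0.13 to -0.09 and was called in neither case. A stretch of 942 bases of Rbbp7 is 97.1% identical to Gm6382, and 174 bases (5.98% of its exons) overlap Txlng on the opposite strand, so part of its count is uncertain.

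The rescue lines were then compared with each other at matched treatment, which asks whether the subunit genes differed before endogenous HDAC1/2 was removed. Both mutant lines were set against the same untreated, and then the same OHT-treated, HDAC1-WT libraries, so the resulting values are not independent of each other. In untreated cells of the Y48E line 3 members were called, against 12.2% of all genes. Mta3 was lower by a log2 of -0.77 (SE 0.12, edgeR's adjusted p = 5.39e-05), and Gatad2a and Rbbp7 were higher by 0.71 and 0.44 (edgeR's adjusted p = 2.37e-05 and 0.00746). The call on Rbbp7 was lost in each fit without 1 of the 6 libraries compared. Without untreated E63R replicate 3 in the model Chd4 was called as well, at 0.30 (edgeR's adjusted p = 0.000138), which made 4 members against 21.4% of all genes. In untreated cells of the E63R line 3 members were called, against 16.9% of all genes. Chd4, Gatad2a and Rbbp7 were higher by 0.52, 0.72 and 0.81 (edgeR's adjusted p = 0.00512, 1.54e-05 and 1.62e-05). Without the library that stood apart 4 members were called, against 20.5% of all genes. Mta3 was added at -0.56 (edgeR's adjusted p = 2e-07), against -0.37 with it (edgeR's adjusted p = 0.0225), and the values for Chd4, Gatad2a and Rbbp7 became 0.73, 0.85 and 0.61. With it, the libraries of Chd4 overlapped between E63R and WT, and the call on Chd4 was lost in fits without any of the WT libraries or without either of the other 2 E63R libraries. With only the 6 libraries compared in the model, 0 members were called between untreated E63R and WT cells. The libraries did not overlap for 5 members in the untreated Y48E comparison, against 40.2% of all genes, and for 3 in the untreated E63R comparison, against 35.2% (5 against 51.7% without replicate 3). The uncalled difference of Mta2 between untreated E63R and WT cells was -0.09 with that library and 0.02 without it.

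In OHT-treated cells of the Y48E line 4 members were called, against 31.8% of all genes, and 2 of them passed 2-fold, against 18.2% of all genes. Gatad2a was higher by a log2 of 1.17 (SE 0.10, edgeR's adjusted p = 4.53e-09), which is 2.26-fold, and Mta3 lower by -1.21 (SE 0.12, edgeR's adjusted p = 3.75e-08), which is 2.31-fold. Mta2 was lower by -0.66 (edgeR's adjusted p = 2.89e-05) and Chd4 higher by 0.63 (edgeR's adjusted p = 0.000556). In those of the E63R line 4 members were called, against 19.3% of all genes. Mta3 was lower by -0.98, and Gatad2a, Rbbp7 and Chd4 were higher by 0.89, 0.58 and 0.52 (edgeR's adjusted p = 1.64e-06, 7.09e-07, 0.00049 and 0.00502). The call on Chd4 in the E63R line was lost in each fit without 1 of the 6 libraries compared. None of these 4 passed 2-fold, as 9.36% of all genes did. With untreated E63R replicate 3 left out of the model, 6 members were called in each of these comparisons, against 41.8% of all genes for Y48E and 29.5% for E63R. Those added were Mta1 in both, given above, Rbbp7 in the Y48E line at 0.34 (edgeR's adjusted p = 4.72e-06) and Mbd2 in the E63R line at -0.48 (edgeR's adjusted p = 0.0062). Libraries did not overlap for 7 members in each of these comparisons, against 59.8% of all genes for Y48E and 50.5% for E63R.

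**Figure D3:**
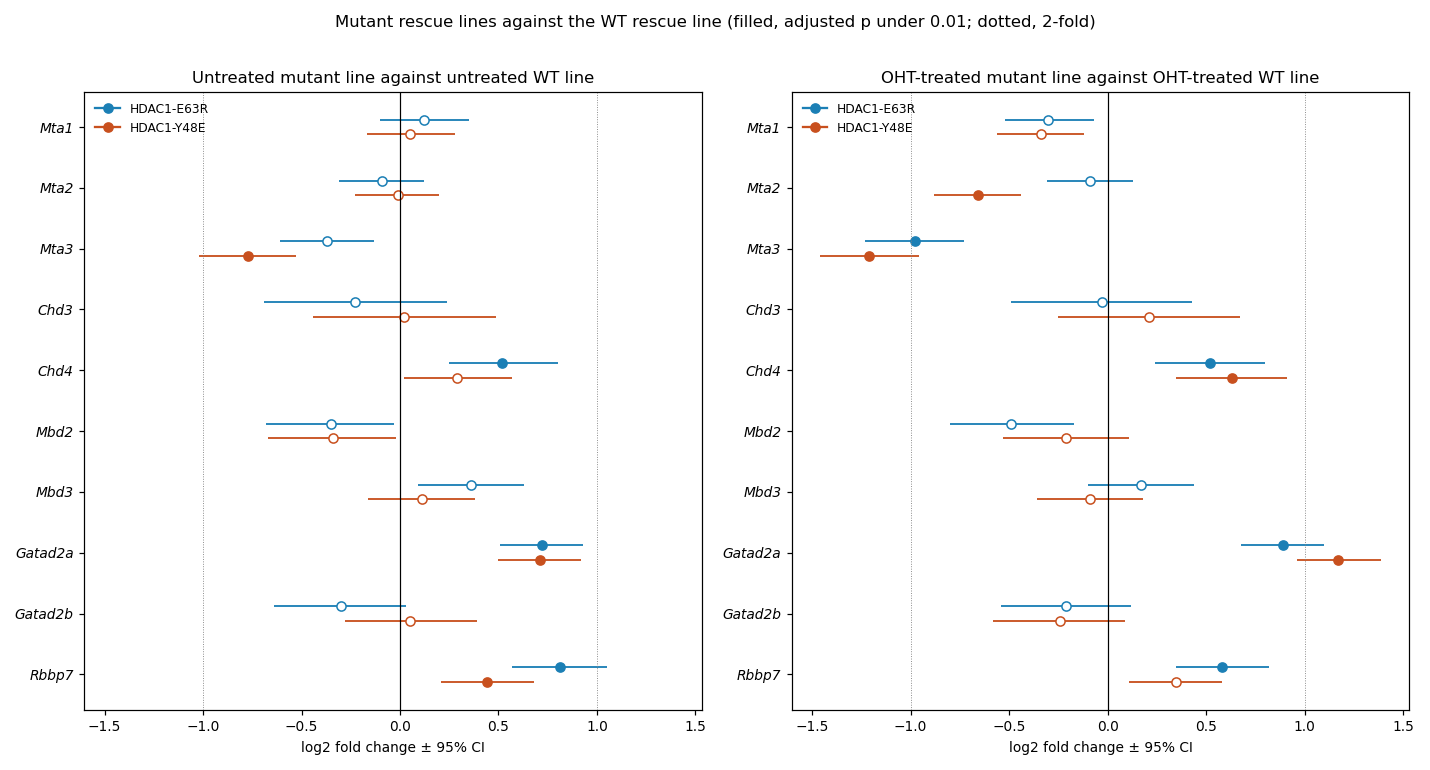
Log2 fold change of each member in the E63R and Y48E lines over the WT line (x axis, with 95% confidence intervals from edgeR), for untreated cells on the left and OHT-treated cells on the right; filled points have an adjusted p under 0.01 and dotted lines mark 2-fold. Gatad2a lies at 0.71 to 1.17 and Mta3 at -0.37 to -1.21 in all 4 comparisons, while Mta2 is filled in OHT-treated Y48E cells alone, at -0.66.

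The balance between paralogs was measured within each library as a ratio of RPKM, which does not depend on library scaling. With 3 libraries against 3 the exact permutation test cannot give a p below 0.1, so the ratios are a description. Gatad2a to Gatad2b was 4.18 (geometric mean, 3.74 to 4.51) in untreated and 4.34 (4.16 to 4.62) in treated WT cells. It was 6.60 (5.91 to 7.63) in untreated and 11.6 (10.7 to 12.9) in treated Y48E cells, 1.76 times as high and without overlap (two-sided exact permutation p = 0.1). With E63R it was 8.77 before, or 7.90 without replicate 3, and 9.30 after OHT (two-sided exact permutation p = 0.8). The share of Gatad2a in the RPKM of the pair thus went from 80.7% in untreated WT to 92.1% in treated Y48E cells. Mbd3 to Mbd2 was lower after OHT in each line, going from 8.07 to 6.41 in WT, from 13 to 10.1 in E63R (from 12.3 without replicate 3) and from 11.1 to 7.04 in Y48E cells, and the libraries of the arms did not overlap in any line (two-sided exact permutation p = 0.1 in each). Chd4 to Chd3 lay between 11.0 and 22.0 by group, and the highest single ratio, 27.6, came from untreated E63R replicate 3. In the E63R line this ratio went from 22.0, or 19.6 without replicate 3, to 15.9 after OHT. The arms did not overlap there with or without that library (two-sided exact permutation p = 0.1 with all libraries), and they overlapped in the WT and Y48E lines. Mta1 to Mta2 went from 1.27 to 1.81 and Mta3 to Mta2 from 0.629 to 0.817 in the Y48E line, both without overlap (two-sided exact permutation p = 0.1), and overlapped in the other lines. By the union of exons, Mta1 in the treated Y48E cells made up 50% ± 2.03, Mta2 27.5% ± 0.855 and Mta3 22.5% ± 1.23 of the RPKM of the MTA genes, beside 37.0% ± 1.56, 30.5% ± 3.07 and 32.5% ± 1.85 in untreated WT cells. With the longest transcript these shares were 43.1% ± 2.03, 28.2% ± 0.714 and 28.6% ± 1.38, beside 30.6% ± 1.28, 30.0% ± 3.07 and 39.5% ± 2.14, so that Mta3 and not Mta1 led in untreated WT cells and the order of Mta2 and Mta3 in treated Y48E cells turned. The size of a ratio depends on the exon length assumed, for example 3.04 instead of 4.18 for Gatad2a to Gatad2b in untreated WT cells with the longest transcript, but its change between arms does not.

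**Figure D4:**
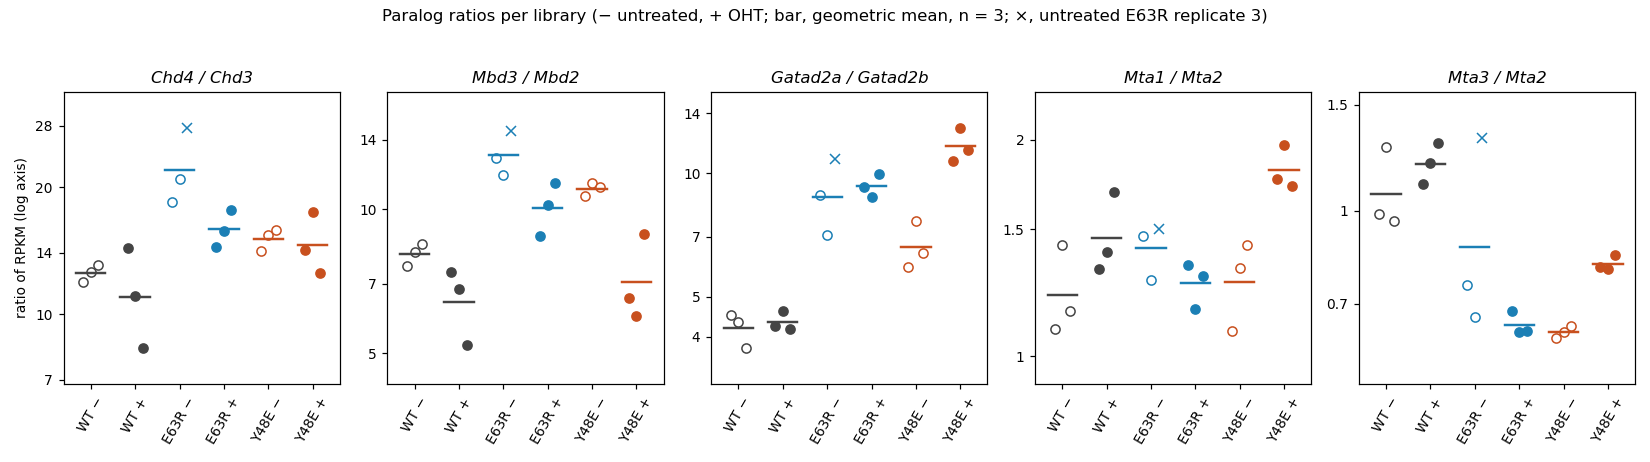
Ratio of RPKM between paralogs (y axis, logarithmic) in each of the 18 libraries by line and treatment (x axis); points are libraries, bars are geometric means of 3 libraries and the cross is untreated E63R replicate 3. Gatad2a to Gatad2b goes from 6.60 to 11.6 with OHT in the Y48E line, and Mbd3 to Mbd2 is lower after OHT in all 3 lines.

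The partners of these subunits were counted from a list of 19 NuRD-associated genes. In the Y48E line 2 of the 19 rose and 5 fell after OHT, against 16.2% and 14.7% of all genes, with a median log2 change of -0.23 against 0.05 over all tested genes. With E63R rescue 1 rose and 3 fell, against 14.3% of all genes called, with a median of -0.10 against 0.03, and in the WT line 0 were called, against 0.0585%. Without untreated E63R replicate 3 in the model, 3 rose and 6 fell in the Y48E line, against 41.1% of all genes called, 2 rose and 5 fell in the E63R line, against 18.5%, and 1 rose and 2 fell in the WT line (Zfpm1, Rbbp4 and Hdac2), against 1.39%. Zmynd8, whose product reads acetylated histones and recruits NuRD, went from 208 ± 10.3 to 75.3 ± 4.60 CPM in the Y48E line, a log2 fold change of -1.47 (edgeR's adjusted p = 2.83e-10), and from 217 ± 6.15 to 128 ± 6.67 CPM in the E63R line (-0.76, edgeR's adjusted p = 1.26e-05, or -0.77 without replicate 3). Its fall was larger in Y48E than in E63R by -0.71 (edgeR's adjusted p = 0.00417, or -0.70 without that library). Rbbp4, the paralog of Rbbp7, fell by 0.60 and 0.54 on the log2 scale in the Y48E and E63R lines (edgeR's adjusted p = 0.000222 and 0.00138), where the E63R value became -0.33 without replicate 3 (edgeR's adjusted p = 3.19e-05). In the WT line Rbbp4 went from 452 ± 16 to 375 ± 9.54 CPM. That fall was called only without untreated E63R replicate 3, at -0.27 (edgeR's adjusted p = 0.00235), near the E63R value of that fit. Zfpm1, the GATA cofactor FOG1 that binds NuRD, rose by 0.95 in both mutant lines (edgeR's adjusted p = 1e-06 in Y48E and 4.55e-06 in E63R), or by 0.87 in E63R without replicate 3. In the WT line Zfpm1 went from 59.3 ± 7.94 to 78.7 ± 3.67 CPM, called only without that library, at 0.41 (edgeR's adjusted p = 0.00933). Parp1, Sall1 and the remodeller gene Chd5 fell in the Y48E line by 0.71, 0.58 and 1.07 on the log2 scale (edgeR's adjusted p = 4.35e-05, 0.00736 and 0.00144), and Pwwp2b rose by 0.88 (edgeR's adjusted p = 0.00117). Among 12 scaffold genes of the other HDAC1/2 complexes, 2 fell and 0 rose in the Y48E line, against 14.7% of all genes called as lower, with a median of -0.19 against 0.05 over all genes. These were Mideas, the MiDAC scaffold, at -1.05 (edgeR's adjusted p = 1.34e-06), and Rcor2, a CoREST scaffold, at -0.59 (edgeR's adjusted p = 4.86e-05). None of the 12 was called in the E63R or WT line with all libraries. Without untreated E63R replicate 3, 4 fell in the E63R line, against 18.5% of all genes called: Rere by 0.75, Mideas by 0.54, Mier1 by 0.44 and Rcor2 by 0.29 on the log2 scale (edgeR's adjusted p = 4.43e-09, 2.1e-06, 0.00618 and 0.00698). In the Y48E line 3 then fell and 1 rose, against 41.1% called.

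Genes known to be held down by Mbd3 or NuRD in ESCs were counted from a list of 8. In the Y48E line 3 rose and 2 fell after OHT, in the E63R line 4 rose and 0 fell, and in the WT line 0 were called, with medians of 0.66, 0.61 and 0.40 on the log2 scale against 0.05, 0.03 and 0 over all genes. The shares of all genes called were 30.9%, 14.3% and 0.0585% in these lines. Without untreated E63R replicate 3, 6 rose in the E63R line, against 18.5%, and 3 rose in the WT line (Klf4, Tbx3 and Zfp42), against 1.39%, while the Y48E counts were as before. Htra1 went from 16.5 ± 0.888 to 77.7 ± 6.59 CPM in the Y48E line (2.24, edgeR's adjusted p = 9.69e-10) and from 7.94 ± 1.16 to 62.1 ± 5.71 CPM in the E63R line (2.97, edgeR's adjusted p = 7.39e-10, or 3.06 without replicate 3). Ppp2r2c rose by 1.29 and 0.97 in the same lines (edgeR's adjusted p = 6.98e-07 and 0.000101), the latter 0.74 without replicate 3. Pramel7 was at 0 to 0.99 CPM in untreated and 7.62 to 10.7 CPM in treated Y48E cells and was called as higher (edgeR's adjusted p = 0.000532). Tbx3 and Zfp42, both pluripotency factors and the latter also an ESC marker here, fell in the Y48E line by 1.08 and 0.37 on the log2 scale (edgeR's adjusted p = 6.98e-07 and 0.00961). The list thus went in both directions in the Y48E line.

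The cell state of the libraries moved with these results. The summed level of 8 ESC markers was 5270 to 5350 CPM in untreated WT and 4040 to 4140 CPM in untreated Y48E cells. It was 1720 to 1890 CPM in treated Y48E cells, where 7 of the 8 fell, against 14.7% of all genes called as lower. With E63R it was 3960 to 5380 CPM before (3960 to 4430 without replicate 3) and 3560 to 3710 CPM after OHT, and in treated WT cells 5610 to 6630 CPM. None of the 8 was at 0 in any group. The sum of 8 trophoblast markers was 270 to 290 CPM in untreated and 299 to 313 CPM in treated WT cells. In the Y48E line it was 174 to 190 CPM before and 1240 to 1330 CPM after OHT. Of the 8, 4 were called higher and 0 lower, against 16.2% and 14.7% of all genes. Without untreated E63R replicate 3 these counts were 4 and 1, against 41.1% of all genes called in either direction. Krt8 (56.4 to 742 CPM) and Krt18 (41.8 to 449 CPM) made up most of the treated sum. Hand1, Gata3 and Elf5 also had higher means. Cdx2 went from 0.375 to 0.24, Tfap2c from 59.5 to 54.1 and Ascl2 from 17.4 to 7.8 CPM. The sum of 5 keratinocyte markers was 0.33 to 2.39 CPM before and 56.4 to 60.9 CPM after OHT in the Y48E line, with Krt5 and Krt14 at 0 in the untreated cells. In the E63R line it was 0.452 to 1.83 and 33.9 to 39.8 CPM, and in the WT line 1.21 to 1.72 and 2.99 to 4.17 CPM. Trophoblast markers were at 176 to 232 CPM before (176 to 196 without replicate 3) and 465 to 504 CPM after OHT in the E63R line. There 5 of the 8 were called higher and 1 lower, against 14.3% of all genes called, or 5 and 0 without replicate 3, against 18.5%. Fibroblast markers summed to 23.0 to 27.2 CPM before and 80.9 to 94.2 CPM after OHT in the Y48E line, and Dcn and Lum were at 0 in the treated cells. The fibroblast sum was also higher after OHT in the other lines. It went from 12.9 to 18.7 CPM up to 48.2 to 56.3 CPM with E63R, and from 23.4 to 25.2 CPM up to 35.9 to 41.9 CPM with WT. Primitive endoderm markers (7 genes, of which 6 were tested) summed to 41.1 to 43.6 CPM in untreated and 36 to 42.2 CPM in treated WT cells. In the Y48E line they summed to 18 to 25.7 CPM before and 46.3 to 51.9 CPM after OHT, so the untreated sum lay below both WT arms. Of the 6, 1 was called, against 30.9% of all genes. This was Dab2, which went from 8.21 ± 2.05 to 30.3 ± 3.57 CPM, while Gata4 had 7.09 and 5.48 CPM and Gata6 1.59 and 1.55 CPM before and after. In the E63R line the primitive endoderm sum was 12.5 to 20.8 CPM before and 22.3 to 27.2 CPM after OHT. The sum of 4 neural markers was 70.4 to 75.7 CPM before and 75.6 to 96.5 CPM after OHT in the WT line. It was 77.5 to 93.4 CPM before and 120 to 124 CPM after OHT in the E63R line. In the Y48E line it was 89.4 to 96.4 CPM before and 132 to 144 CPM after, but 2 rose and 2 fell there, against 16.2% and 14.7% of all genes. Tubb3 went from 41.3 to 69.2 CPM and Nes from 26.6 to 60.6 CPM, whereas Pax6 went from 11.4 to 2.09 CPM and Sox1 from 12.7 to 5.10 CPM. The part of these shifts in the levels of the NuRD genes was not tested. In bulk RNA, fewer cells that express a gene and less RNA per cell cannot be told apart.

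For the members with the largest rise and fall after OHT in the Y48E line, the genes with the most similar pattern across the 18 libraries were found by Pearson correlation of log2 CPM. The libraries share their 6 groups, so these values describe the pattern and carry no test. Mbd2 was closest to Pls3 (0.896), Etfa (0.889) and Gm12043 (0.860). Mta2 was closest to Iqgap3 (0.948), Snrnp200 (0.946) and Dhdh (0.946). Snrnp200, which encodes a helicase of the spliceosome, had 416 ± 17.7 CPM in untreated and 186 ± 9.01 CPM in treated Y48E cells, and 525 ± 20.1 and 394 ± 33.1 CPM in the WT line. Pls3, an actin-bundling protein, had 18.9 ± 2.97 and 39.8 ± 4.38 CPM in the Y48E line and 33.3 ± 1.85 and 41.2 ± 3.96 CPM in the WT line.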

How the data were processed

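RNA had been sequenced from 18 libraries in 6 groups, with 3 libraries in each. The authors mapped reads to mm10 and deposited raw counts per gene symbol, with HISAT2 2.1.0, SAMtools 1.9 and HTSeq named in the submitters' processing notes. The annotation and strand setting are not given in the sources used here. The 5 entries that name no gene (59.4% to 61.2% of a library) were left out. Genes were filtered with filterByExpr by group, scaled with TMM factors and tested in 1 edgeR 4.0.16 quasi-likelihood model of 18 libraries (R 4.3.3), with Benjamini-Hochberg adjustment over 18791 genes in each comparison and a threshold of 0.01. CPM are TMM-scaled, and RPKM use the union of exons in GENCODE M21, whose positions are those of mm10. Standard errors were computed as the log2 change divided by the square root of F. Promoter sequences are from RefSeq (GRCm38.p6), and 7 of the 10 members had one printed or searched. Those of Mta3, Chd3 and Mbd2 were not searched. Copies were sought with BLAST 2.17.0.

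All 10 members were named, and from the lists those called after OHT in the Y48E line or in a difference between lines. The genes nearest in pattern were the 3 tested genes outside the members with the highest correlation. The correlation of library deviations with exon length used genes at a mean of at least 5 CPM. The members and lists were chosen with earlier results of these data known. Alternatives were DESeq2 1.42.0, relative log expression factors, no filter, thinning, a replicate block, a model of only the libraries compared, a threshold of 0.05, and each library left out. The procedure was tested on simulated data that held no library standing apart from its group. That test therefore does not cover the effect of untreated E63R replicate 3 on the calls. Counts of 3 (0.248 to 0.343 CPM) are the upper 95% limit for a count of 0 and cover counting error only.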

Additional observations from a re-analysis of the deposited data

Results flagged for a closer look

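The OHT effect on Mta2 differed between 2 rescue lines by a test of the difference itself. The log2 change in the Y48E line was below that in the HDAC1-WT line by -0.64 (standard error 0.15, edgeR adjusted p = 0.00316), with all 3 treated Y48E libraries (85.7 to 90.1 CPM) below all other libraries of both lines. Over the alternatives the adjusted p ran from 2.34e-06 to 0.0116, and the call was lost in 5 of the 12 fits that left out 1 of the libraries compared.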

How the results depend on the processing

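Of 1540 values for 100 member results under the alternatives, 1443 stayed on their side of the threshold, 39 lost the call, 58 gained it and 0 called values reversed, while 60 values uncalled in both fits changed sign. With only the libraries compared in the model, members called after OHT were 0 in the E63R, 7 in the Y48E line and 5 in the difference of Y48E from WT, and 0 between untreated E63R and WT cells. Over all comparisons this setting gained 12 calls and lost 4, so some counts not listed here changed as well. DESeq2 called 3, 2 and 1 in the E63R line, the difference of Y48E from WT and that of Y48E from E63R. It gained 5 calls over all comparisons, which these counts do not cover in full. At an adjusted p under 0.05 the counts were 3 in the E63R and 5 in the Y48E line, 2, 1 and 1 in the differences of Y48E from WT, E63R from WT and Y48E from E63R, 5 between untreated E63R and WT cells, and 6 each between treated Y48E or E63R and WT cells. Thinning gave 1 in the difference of Y48E from E63R. With each library left out in turn, the counts were 1 to 4 in the E63R line, 2 to 3 in the Y48E line, 0 to 1, 0 to 2 and 0 to 3 in the differences of Y48E from WT, E63R from WT and Y48E from E63R, and 2 to 4 between untreated E63R and WT cells. Leaving untreated E63R replicate 3 out of models whose comparison does not use it, chosen after seeing the data, gave 7 in the Y48E line, 5 in the difference of Y48E from WT, 4 between untreated Y48E and WT cells, and 6 each between treated Y48E or E63R and WT cells, 12 calls more in all. The share of all genes called moves with the setting too, for example from 30.9% to 41.1% in the Y48E line when that library was left out. For the other settings this share is not given here, so nothing is read from their counts about the members as a group. The cause of these shifts was not tested, except that fewer libraries or a wider threshold were part of the setting. Same-numbered libraries did not deviate together (correlations of -0.02 to 0.04). This cannot show whether they were cultured or handled together, which the labels do not say. A replicate block changed no call, with 4 members called in the Y48E line, 1 in the E63R line and 0 in the WT line.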
